A study of Mus musculus with 6 samples.

Results

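Primed epiblast and neuroectoderm markers are genes that switch on when pluripotent mouse cells leave the naive state and take a first step toward the nervous system. Here 8 of them were followed, chosen by name: the homeodomain factor Otx2, the POU factor Pou3f1, the secreted growth factor Fgf5, the SoxB1 factors Sox1 and Sox3, the paired-box factor Pax6, the intermediate filament Nes and the zinc finger factor Zic2. They are 8 of the 50686 gene identifiers in the count files, and all 8 were among the 16729 genes that passed the filter on low counts. RNA sequencing was performed on iPSCs reprogrammed from mouse gingival fibroblasts and grown as embryoid bodies. All constructs, controls included, had been treated with retinoic acid and attached to gelatin-coated dishes, and were then kept in serum-free medium. In the ICF group (n = 3) an intermittent compressive force of 1.5 g per square centimetre at 0.23 Hz was applied for 24 h, and the control group (n = 3) was left unloaded. The labels assign samples of both groups to donors 1 to 3, called replicates here, and the study's methods speak of independent experiments and mention no donors.

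In the embryo, the naive epiblast passes through a formative stage into the primed epiblast of the egg cylinder. Otx2, Pou3f1 and Fgf5 come up during this transition, and Otx2 and Zic2 take part in it by binding enhancers of primed genes. Cells that then enter the neural path switch on Sox1, keep Sox3, and make nestin (Nes) and Pax6 as neural progenitors form. Retinoic acid is a known inducer of neural and other fates in embryoid bodies. In this study it was given with the stated aim of obtaining immature mesenchymal cells.

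Counted reads on genes came to 28711166 to 34194413 per sample. A single library stood apart. Of its counts above 0, 89.0% in ICF replicate 3 could be divided by 4 without remainder, where the remaining samples had 20.3% to 21.5%. All 8 members had such a count in that library. Replicate 3 of both groups also had the largest shares of reads outside annotated genes, 6.24% in the control and 6.04% with ICF, against 4.09% to 4.52% in the other samples. Calls of the members are therefore also given without replicate 3. For the other genes, only total counts of calls are given for that setting. The label of the cells was checked on 7 pluripotency markers (Pou5f1, Sox2, Nanog, Lin28a, Sall4, Dppa5a and Zfp42), all of which were counted in every sample, with a summed level of 2684 to 3068 CPM in the control and 2633 to 2846 CPM with ICF. CPM denotes the count per 1000000 counted reads after TMM normalization. These are bulk samples, so fewer cells expressing a gene and less RNA per cell cannot be told apart.

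In edgeR's quasi-likelihood test without a replicate block, 0 of the 8 members passed the adjusted p threshold of 0.05, where 7.85% of all tested genes did, 3.47% as higher and 4.38% as lower. At an unadjusted p under 0.05 there were 4 members in the same edgeR test (Otx2, Fgf5, Nes and Zic2), where 25.6% of all tested genes lay under it. DESeq2, the tool the study used, gave 1 member higher (Nes) and 2 lower (Otx2 and Zic2) with ICF at an adjusted p under 0.05. It called 13.9% of genes, 6.38% as higher and 7.5% as lower. With the donor number as a replicate block, 2 members rose (Fgf5 and Nes) and 2 fell (Otx2 and Zic2) in the edgeR test. This fit called 29.9% of all tested genes, 14.6% as higher and 15.3% as lower. The same 4 members passed in the same directions when replicate 3 of both groups was left out, which leaves 2 samples per group. Of all genes then tested, 30.1% passed without the block (14.6% higher, 15.6% lower) and 26.8% with it (12.8% higher, 14% lower). The median log2 fold change was -0.0068 over the 8 members and 0.0026 over all tested genes. The members thus did not move one way, with 4 estimates above 0 and 4 below.

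Groups that did not overlap were found for 3 of the 8 members, 1 higher with ICF (Nes) and 2 lower (Otx2 and Zic2). Such a separation held for 31.4% of all tested genes, 15.6% higher and 15.7% lower. Within same-numbered pairs, 3 members were higher with ICF in all 3 pairs (Fgf5, Sox1 and Nes) and 2 were lower in all 3 (Otx2 and Zic2), where 56.6% of all tested genes had the same direction in all 3 pairs, 28.3% higher and 28.3% lower. Both shares of members lie near these backgrounds. The smallest p that the exact two-sided permutation test allows for 3 samples against 3 is 0.1, so single members are judged by the fit across all genes.

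**Figure D1:**
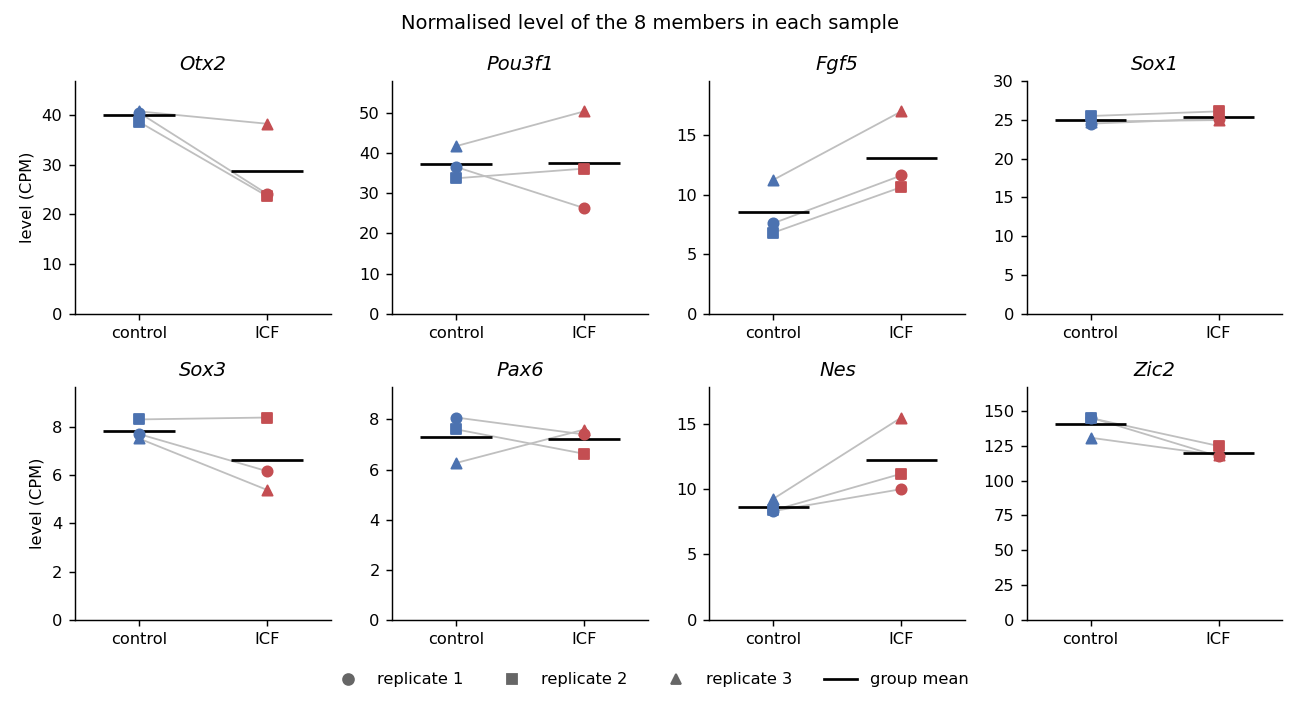
Normalised level in CPM (vertical axes, from 0) of the 8 members in the 3 control (blue) and 3 ICF samples (red), with grey lines joining samples of the same replicate number and black bars at the group means. Otx2 and Zic2 lie lower and Nes higher in all ICF samples, and Otx2 in ICF replicate 3 lies at 38.2 CPM, close to the controls.

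Among the epiblast markers, Otx2 and Fgf5 had estimates of opposite sign. Otx2 encodes a homeodomain transcription factor of the primed epiblast and later of the anterior brain (ENSMUSG00000021848, GRCm38 chromosome 14, reverse strand, 48657677 to 48673819). Its level was 40.5, 38.6 and 40.7 CPM in control replicates 1, 2 and 3, and 24.1, 23.7 and 38.2 CPM with ICF. All ICF samples were below all controls, but ICF replicate 3 lay much closer to the controls than to the other ICF samples. The group means were 39.9 ± 1.16 CPM in the control and 28.7 ± 8.28 CPM with ICF (SD, n = 3 each). In the test with the replicate block the log2 estimate of Otx2 was -0.51 ± 0.084 (standard error; adjusted p = 1.6e-05, edgeR). This standard error draws on the variance of other genes as well as on the Otx2 pairs, which differed in size. Without the block the log2 fold change was -0.48 (95% interval -0.86 to -0.099, adjusted p = 0.115, edgeR). The log2 ratio of ICF to control was -0.73, -0.69 and -0.090 in pairs 1, 2 and 3. Leaving out ICF replicate 3 alone gave a log2 fold change of -0.73 (adjusted p = 0.00093, edgeR without block). DESeq2 with the block gave -0.52 with a larger standard error of 0.21, and an adjusted p of 0.066. Over the 18 alternatives tried, the adjusted p of Otx2 ran from 1.0e-16 to 0.299. The lowest came from edgeR with the block and without replicate 3 of both groups, where the variance is pooled over genes.

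Fgf5 encodes a secreted fibroblast growth factor that is the classical marker of the primed epiblast (ENSMUSG00000029337, chromosome 5, forward strand, 98254184 to 98277030). The control samples held 7.60, 6.80 and 11.2 CPM in replicates 1, 2 and 3, and the ICF samples 11.6, 10.6 and 17.0 CPM. Replicate 3 was the highest sample of each group, and its control lay above ICF replicate 2, so the groups overlapped. Within pairs the log2 ratios were close together, at 0.58, 0.61 and 0.58. The means were 8.55 ± 2.36 and 13.1 ± 3.42 CPM (SD, n = 3 each). With the replicate block Fgf5 rose by 0.62 on the log2 scale (standard error 0.099, adjusted p = 1.0e-05, edgeR), a fold of 1.53 (95% interval 1.33 to 1.76). Without the block the estimate was 0.61 (95% interval 0.097 to 1.13, adjusted p = 0.132, edgeR). Leaving out control replicate 3 gave 0.86 (adjusted p = 0.0405, edgeR without block), whereas leaving out ICF replicate 3 gave 0.39 (adjusted p = 0.248). Leaving out replicate 3 of both groups under the block gave 0.63 (adjusted p = 1.7e-06, edgeR). In that fit on the remaining pairs, the variance is pooled over genes. Over the 18 alternatives the adjusted p ranged from 1.9e-07 to 0.38.

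Pou3f1, also known as Oct6, encodes a POU-domain factor of the primed epiblast and of early neural cells (ENSMUSG00000090125, chromosome 4, forward strand, 124656807 to 124660655). It was measured at 36.5, 33.7 and 41.7 CPM in the control and at 26.3, 36.1 and 50.4 CPM with ICF. ICF replicate 1 was the lowest and ICF replicate 3 the highest of the 6 samples, and the pairs differed in sign, with log2 ratios of -0.47, 0.098 and 0.27. The group means were 37.3 ± 4.07 (SD, n = 3) and 37.6 ± 12.1 CPM (SD, n = 3). On the log2 scale the difference was 0.0084 with a 95% interval of -0.45 to 0.47 (adjusted p = 0.986, edgeR), so folds from 0.733 to 1.38 lie within it. Without ICF replicate 3 the estimate was -0.25. The exon of Pou3f1 shares 330 bases with Gm2164 on the opposite strand, which had 0 to 5 counts per sample.

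Zic2, a zinc finger factor of the epiblast and of the dorsal neural tube (ENSMUSG00000061524, chromosome 14, forward strand, 122475435 to 122479852), was the most deeply counted member, with 3424 to 4539 counts per sample. Its level was 145, 145 and 131 CPM in the control and 117, 125 and 118 CPM with ICF. The lowest control, replicate 3, was above the highest ICF sample, replicate 2. The means were 140.4 ± 8.28 and 120.2 ± 4.10 CPM (SD, n = 3 each). With the replicate block Zic2 fell, by -0.22 on the log2 scale or -14.3% (standard error 0.052, adjusted p = 0.0011, edgeR). The estimate without the block was also -0.22 (95% interval -0.37 to -0.078, adjusted p = 0.069, edgeR). All 3 pairs were lower, by log2 ratios of -0.31, -0.21 and -0.15. Without control replicate 3 the estimate was -0.27 (adjusted p = 0.031, edgeR without block). Without replicate 3 of both groups it was -0.26 (adjusted p = 0.00067, edgeR without block). Over the 18 alternatives the adjusted p ranged from 0.0002 to 0.254.

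Zic5, a paralog transcribed in the opposite direction from a start 9758 bases from that of Zic2, was looked at for its position after its values were seen. It held 53.4, 53.9 and 55.3 CPM in the control and 47.2, 45.4 and 48.3 CPM with ICF, without overlap between the groups. Its log2 fold change of -0.21 was near that of Zic2 (standard error 0.062, adjusted p = 0.076, edgeR), and it passed with the replicate block (adjusted p = 0.0082). The ratio of Zic5 to Zic2 counts was 0.387 ± 0.031 in the control (SD, n = 3) and 0.391 ± 0.025 with ICF (SD, n = 3), with overlapping samples. The noncoding gene 2610035F20Rik begins 236 bases from the start of Zic2 on the other strand. Its estimate had the opposite sign, 0.28 (standard error 0.13, adjusted p = 0.198, edgeR), and did not pass with the block either (adjusted p = 0.092).

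**Figure D2:**
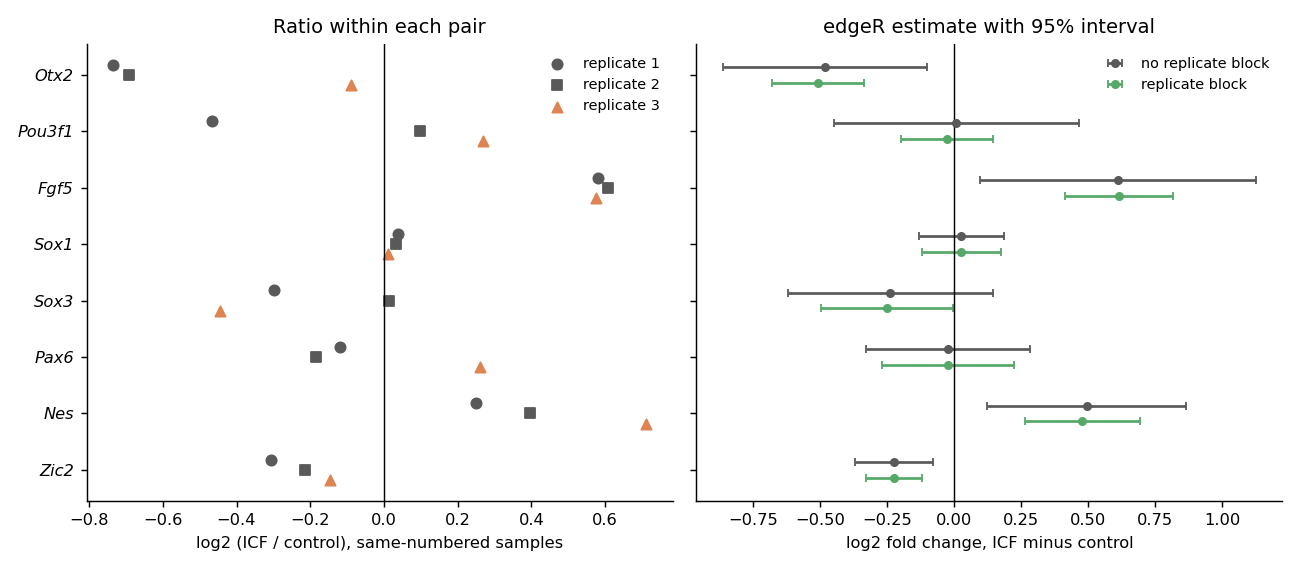
Left, log2 ratio of ICF to control within each pair of same-numbered samples (horizontal axis) for the 8 members, with replicate 3 in orange. Right, edgeR log2 fold change with its 95% interval, without (grey) and with the replicate block (green). The 3 Fgf5 ratios lie between 0.58 and 0.61, whereas the Otx2 ratio of replicate 3, at -0.090, stands apart from the other 2.

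Of the neuroectoderm genes, the nestin gene alone passed a test in the fit with the replicate block. Nes encodes nestin, an intermediate filament protein of neural progenitors that is also made in other growing cells (ENSMUSG00000004891, chromosome 3, forward strand, 87971078 to 87980451). Control levels were 8.31, 8.37 and 9.25 CPM, and ICF levels were 9.99, 11.2 and 15.5 CPM. Every ICF sample was above every control, and replicate 3 was the highest of each group. The means were 8.65 ± 0.53 and 12.2 ± 2.88 CPM (SD, n = 3 each). The log2 fold change was 0.48 with the block (standard error 0.11, adjusted p = 0.00065, edgeR) and 0.49 without it (95% interval 0.12 to 0.87, adjusted p = 0.0998, edgeR). Pair ratios on the log2 scale were 0.25, 0.40 and 0.71. Leaving out ICF replicate 3 alone moved the estimate without the block to 0.30 (adjusted p = 0.141, edgeR). Under the block and without replicate 3 of both groups, it was 0.34 (adjusted p = 0.014, edgeR), with a variance pooled over genes. Over the 18 alternatives the adjusted p lay between 0.00026 and 0.286.

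Sox1, the SoxB1 factor that marks commitment to neuroectoderm, is a single-exon gene (ENSMUSG00000096014, chromosome 8, forward strand, 12395295 to 12400126). Its levels were 24.5, 25.5 and 24.8 CPM in the control and 25.2, 26.1 and 25.0 CPM with ICF. It was the steadiest member, with a coefficient of variation of 2.05% in the control and 2.36% with ICF. Both lie below the 3.67% and 3.49% that counting alone gives at its mean counts. The log2 fold change of 0.028 had a 95% interval of -0.13 to 0.19 (adjusted p = 0.843, edgeR). Changes beyond 1.14-fold up or 0.913-fold down lie outside this interval.

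Sox3, its SoxB1 relative on the X chromosome (ENSMUSG00000045179, reverse strand, 60891366 to 60893430), is expressed in the epiblast as well as in neural progenitors. The control samples held 7.70, 8.30 and 7.51 CPM and the ICF samples 6.16, 8.38 and 5.39 CPM. ICF replicates 1 and 3 were below all controls, while ICF replicate 2 was the highest of the 6. The estimate of -0.24 did not pass the threshold (95% interval -0.62 to 0.15, adjusted p = 0.421, edgeR), nor did it with the block (-0.25, adjusted p = 0.123). Single ICF samples moved it by over 1.5 times, to -0.43 without replicate 2 (adjusted p = 0.139, edgeR) and to -0.10 without replicate 3 (adjusted p = 0.71).

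Pax6, a paired-box factor of the neural tube and the eye (ENSMUSG00000027168, chromosome 2, forward strand, 105668900 to 105697364), had levels of 8.07, 7.60 and 6.26 CPM in the control and 7.40, 6.63 and 7.59 CPM with ICF. The groups overlapped fully, and the pair of replicate 3 went up while the other 2 went down. Its log2 fold change was -0.022 (95% interval -0.33 to 0.28, adjusted p = 0.938, edgeR). None of Pou3f1, Sox1, Sox3 and Pax6 passed in any of the 18 alternatives.

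The sequences upstream of Fgf5 and Nes are shown because these are the 2 members that rose together under the replicate block. RefSeq start-site windows of GRCm38.p6 covered 5 of the 8 members (Otx2, Fgf5, Sox1, Pax6 and Nes) with 9 windows, of which the 250 bases before the start were searched on both strands for 5 motifs. Capitals mark the GC box GGGCGG or its reverse complement CCGCCC, which 32.7% of all 32851 windows hold. The window of Fgf5 held 1 match and that of Nes 2. Neither held the CCAAT box (CCAAT, 33.8% of windows), the TATA box (TATAAA, 12.4%), the hypoxia response core (ACGTG, 16.6%) or the SOX core (CATTGT, 10.7%). The windows are 70.8% and 58.8% G or C, where the median of all windows is 52.4%.
Fgf5, chr5:98253934-98254183, forward strand: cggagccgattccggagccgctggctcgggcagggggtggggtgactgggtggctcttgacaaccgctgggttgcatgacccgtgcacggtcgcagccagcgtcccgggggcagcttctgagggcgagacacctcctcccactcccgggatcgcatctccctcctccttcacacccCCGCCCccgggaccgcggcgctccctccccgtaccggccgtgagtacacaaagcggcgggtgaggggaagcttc
Nes, chr3:87970843-87971092, forward strand: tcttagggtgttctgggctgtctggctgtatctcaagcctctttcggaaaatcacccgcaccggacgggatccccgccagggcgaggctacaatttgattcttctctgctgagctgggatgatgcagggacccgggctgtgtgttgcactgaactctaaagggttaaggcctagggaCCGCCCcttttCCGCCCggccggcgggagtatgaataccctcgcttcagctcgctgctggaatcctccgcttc

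For the remaining windows, 3 GC boxes and 1 CCAAT box were found at Sox1, and 1 CCAAT box and 1 hypoxia response core at the 2 starts of Pax6. The RefSeq start of Sox1, at 12395519, lies inside the single exon given above, which begins at 12395295. Its 3 GC boxes therefore fall within that exon. Of the 4 Otx2 starts, 1 window held the TATA box, 1 the CCAAT box and 1 the hypoxia response core. A match is only a run of letters in these windows, and binding was not measured here.

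Levels of different genes were compared per kilobase of merged exon. In the control, Zic2 was highest at 48.7 ± 2.87 CPM per kb (SD, n = 3), and Pax6 lowest at 0.625 ± 0.080 (SD, n = 3). Between them followed Pou3f1 at 9.70 ± 1.06, Otx2 at 9.46 ± 0.27, Sox1 at 5.16 ± 0.11, Sox3 at 3.80 ± 0.20, Fgf5 at 3.42 ± 0.95 and Nes at 1.35 ± 0.082 CPM per kb (SD, n = 3 each). Over all 6 samples the ranges of Pou3f1 and Otx2 overlapped, and so did those of Sox3 and Fgf5, whereas the other neighbours in this order did not overlap. Genes further apart in the order could overlap. Fgf5 reached 6.79 CPM per kb in ICF replicate 3, above the range of Sox1 (5.08 to 5.41). With ICF, Fgf5 stood at 5.23 ± 1.37 and Sox3 at 3.22 ± 0.75 CPM per kb (SD, n = 3 each), so the order of their means was the reverse of that in the control. Fgf5 lay above Sox3 in every ICF sample, but also in control replicate 3 (4.49 against 3.64). In the other controls it lay below. The exons of Pax6 merge to 11694 bases over many transcripts, which lowers its value on this scale. Of the SoxB1 genes, Sox2, which pluripotent cells need, stood at 222 CPM per kb in the control, far above Sox1 and Sox3.

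**Figure D3:**
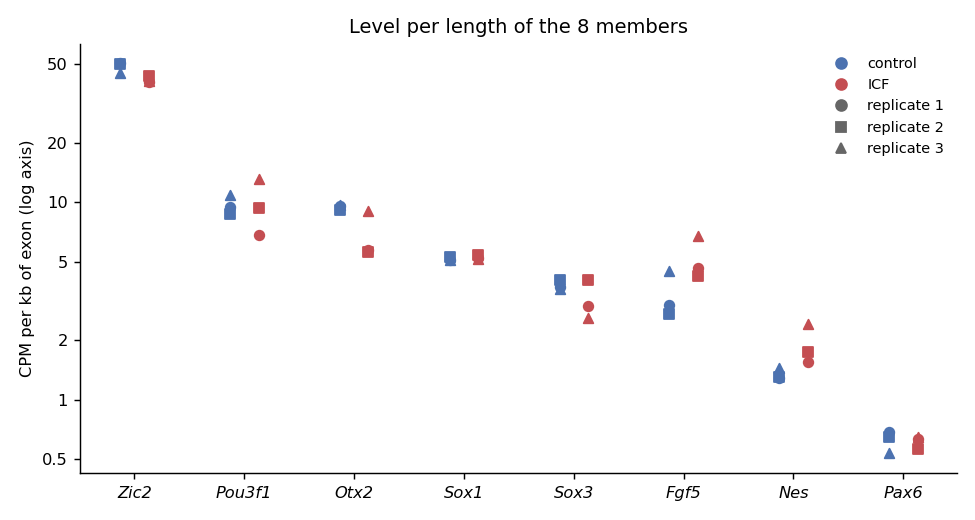
Level per kilobase of merged exon (CPM per kb, log axis) of the 8 members in each control (blue) and ICF sample (red), ordered by the control mean. Zic2 is above all others in every sample, and Pax6 is the lowest, from 0.535 to 0.691 CPM per kb.

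To place the members, 100 other genes of related cell states were taken from 7 lists, of which 90 were tested. In edgeR's test without the block 5 of these rose and 8 fell, and with the block 12 rose and 19 fell. Leaving out replicate 3 of both groups, without the block, 8 rose and 23 fell, where 30.1% of all genes then tested were called. Calls per list are not given for that setting. The lists were chosen with earlier results of these data known, and 4 genes stand in more than 1 list. Counts per list are descriptions, to be read against the 7.85% of all genes called without the block and 29.9% with it.

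Of 16 epiblast companions, 1 rose and 1 fell, with a median log2 fold change of -0.043. Tdgf1, the Nodal co-receptor Cripto, fell from 722 ± 88.9 to 411 ± 36.5 CPM (SD, n = 3 each), by -0.81 on the log2 scale (standard error 0.10, adjusted p = 0.0028, edgeR). Sall2, a zinc finger factor, rose from 11.8 ± 1.18 to 16.0 ± 0.71 CPM (SD, n = 3 each; log2 fold change 0.44, adjusted p = 0.038, edgeR), a call that passed in 13 of the 18 alternatives. The most abundant others did not pass. Pou5f1 was at 841 and 817 CPM in control and ICF, Sox2 at 457 and 463, Utf1 at 470.3 and 402, and the DNA methyltransferase gene Dnmt3b at 404 and 523 CPM. With the block 3 genes of this list rose and 3 fell. Among those just named, Dnmt3b was then called as higher (log2 fold change 0.38, adjusted p = 2.3e-07, edgeR) and Utf1 as lower (-0.23, adjusted p = 0.0011).

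Of 12 tested close relatives of the members, 0 passed in edgeR's test without the block and 2 fell with it. At an unadjusted p under 0.05 there were 2 in that edgeR test, both lower, and DESeq2 called 1. Abundant ones among them were Sox2, Fgf4 (185 and 169 CPM in control and ICF) and Vim (163 and 180 CPM). The 2 that fell with the block were Fgf4 and Zic5 (adjusted p = 0.049 and 0.0082, edgeR). The remaining 4 of the 16 listed relatives, Pou3f2, Pou3f4, Zic4 and Pax7, did not pass the filter on low counts and are named after their values were seen. Of the 4 FGF receptors, Fgfr1 rose from 91.0 ± 2.70 to 108 ± 2.23 CPM (adjusted p = 0.031, edgeR), and Fgfr4 fell from 15.1 ± 0.30 to 10.7 ± 1.26 CPM (SD, n = 3 each; adjusted p = 0.029, edgeR). Each of these calls passed in 14 of the 18 alternatives. Fgfr2 was at 45.2 and 42.1 CPM and Fgfr3 at 10.6 and 8.29 CPM in control and ICF, and neither passed without the block. Fgfr3 was called as lower with it (log2 fold change -0.35, adjusted p = 0.0103, edgeR).

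Of 26 tested neural progenitor companions, 0 passed in edgeR's test without the block, and 1 rose and 2 fell with it, with a median log2 fold change of 0.019. DESeq2 called 0 as well, and 2 had an unadjusted p under 0.05 in edgeR's test, 1 higher and 1 lower. Besides Sox2, the most abundant were Sox11 (109 and 99.6 CPM in control and ICF), the RNA-binding protein gene Msi2 (89.7 and 94.9 CPM) and Gbx2, a homeobox gene of the hindbrain boundary (67.2 and 48.6 CPM). Gbx2 passed with the block only (adjusted p = 1.7e-06, edgeR), and ICF replicate 3 was its lowest sample at 32.7 CPM. Of the 31 listed genes, 5 had too few counts to be tested.

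Of 12 neuronal genes, 2 rose and 3 fell, with a median log2 fold change of -0.17. Neurod1, a factor of neuronal differentiation, rose from 1.82 ± 0.27 to 4.64 ± 0.76 CPM (SD, n = 3 each; log2 fold change 1.35, adjusted p = 0.0047, edgeR). Ina, encoding the filament protein alpha-internexin, rose from 65.6 ± 1.69 to 93.7 ± 5.21 CPM (SD, n = 3 each; log2 fold change 0.52, adjusted p = 0.0029, edgeR). In the other direction, Elavl3, an RNA-binding protein gene of neurons, fell by 1.32 on the log2 scale (adjusted p = 0.042, edgeR), Stmn2 by 0.37 (adjusted p = 0.049) and the neurofilament gene Nefl by 0.23 (adjusted p = 0.048). Elavl3 passed in 14 of the 18 alternatives, Stmn2 in 14 and Nefl in 11, whereas Neurod1 and Ina passed in all 18. Tubb3 stood at 75.8 and 64.8 CPM in control and ICF and Map2 at 10.9 and 13.9 CPM, and neither passed without the block. With the block 4 genes of the list rose and 4 fell, among them Map2 as higher (0.35, adjusted p = 0.0073, edgeR) and Tubb3 as lower (-0.23, adjusted p = 0.0025).

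Of 14 tested genes of the retinoic acid response, 0 rose and 3 fell in edgeR's test, and 11 had estimates below 0, with a median of -0.16. At an unadjusted p under 0.05 these counts were 0 and 4, as they were with DESeq2. Cyp26a1, the enzyme that degrades retinoic acid, fell from 34.2 ± 1.28 to 21.1 ± 2.60 CPM (SD, n = 3 each; log2 fold change -0.70, adjusted p = 0.0052, edgeR). Stra6, a receptor for the retinol carrier, fell from 8.62 ± 0.51 to 3.70 ± 0.93 CPM (log2 fold change -1.21, adjusted p = 0.0069), and Stra8, a gene named for its induction by retinoic acid, from 4.43 ± 0.24 to 2.25 ± 0.12 CPM (SD, n = 3 each; log2 fold change -0.98, adjusted p = 0.0062). All 3 passed in each of the 18 alternatives. Rarg (126 and 117 CPM in control and ICF) and Meis1 (18.7 and 17.0 CPM) did not pass. With the block 1 gene of this list rose and 4 fell.

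Of 11 naive pluripotency genes, 1 rose, the T-box gene Tbx3, from 104 ± 7.01 to 136 ± 9.77 CPM (SD, n = 3 each; log2 fold change 0.39, adjusted p = 0.018, edgeR). Nanog was at 353 and 324 CPM, Esrrb at 359 and 356 CPM and Klf4 at 228 and 188 CPM in control and ICF, without passing. With the block 2 genes of the list rose and 3 fell, and Klf4 was called as lower (log2 fold change -0.28, adjusted p = 5.3e-05, edgeR). The list had a median of -0.090.

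**Figure D4:**
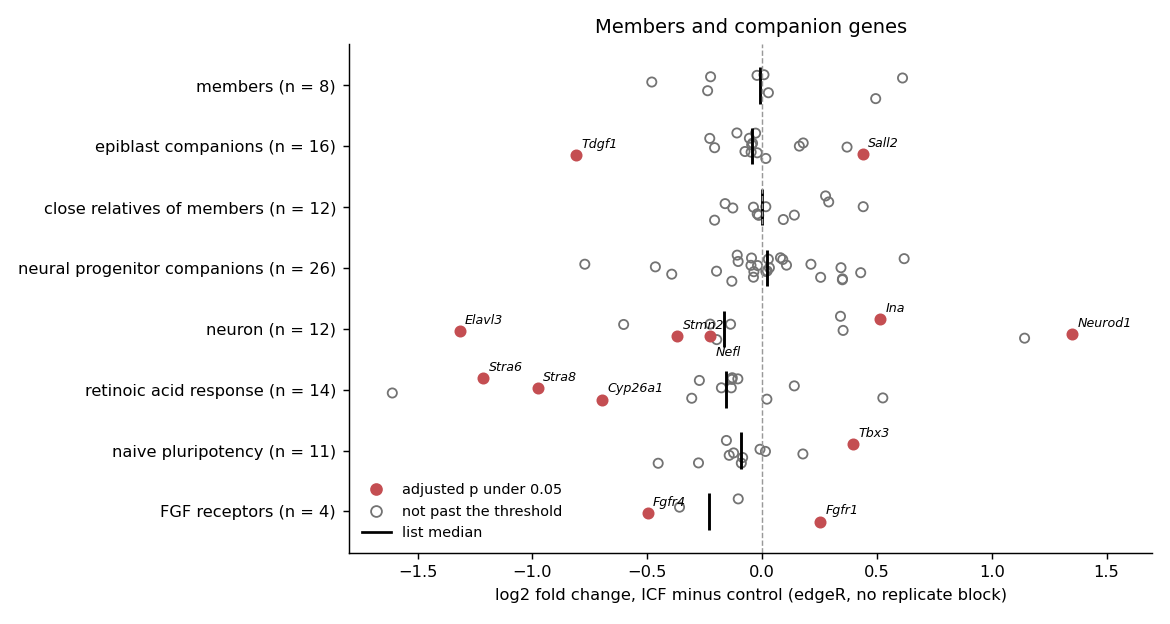
Log2 fold change of ICF minus control (horizontal axis, edgeR without replicate block) for the members and the 7 companion lists, 1 point per tested gene, with calls at an adjusted p under 0.05 filled in red and black bars at the list medians. No member is filled, and the largest calls are those of Neurod1 at 1.35 and Elavl3 at -1.32.

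Markers of other cell types were read beside these values. The summed level of 13 fibroblast or mesenchymal markers was 946 to 1177 CPM in the control and 875 to 1070 CPM with ICF, that of 8 endoderm markers 1212 to 1613 and 1377 to 1558 CPM, and that of 8 mesoderm markers 61.0 to 103 and 56.1 to 92.7 CPM. For 6 neural crest markers the ranges were 63.6 to 64.9 and 65.8 to 68.1 CPM, which do not overlap. Of the 4 tested neural crest markers, however, 1 had an estimate above 0 and 3 below, and 0 separated the groups by itself. With the block 1 of these rose and 0 fell. The fibroblast sum is mostly Fn1, at 775 and 660.3 CPM in control and ICF, while 9 of the 12 tested genes of that list had estimates above 0, and with the block 4 rose and 2 fell. The sum of the 12 neuronal genes was 434 to 462 and 381 to 426 CPM. Every listed marker had a count in at least 1 sample, and the neural crest factor Sox10 had 8 to 14 counts. Single markers past the threshold, named after their values were seen, were Col1a1 and Col3a1, which rose, and Sox17, which fell (adjusted p = 0.022, 0.048 and 0.045, edgeR). Sox17 is 1 of the 8 endoderm markers, of which 6 had estimates above 0. With the block 2 endoderm markers rose and 2 fell. The part of these cell types in the members' values was not tested.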

How the data were processed

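RNA was measured in 3 ICF-treated and 3 control constructs. The deposited values are counts of reads per gene. Per the study's methods, strand-specific libraries were read for 75 cycles, and the authors used Trimmomatic for filtering, HISAT2 for alignment to the genome and HTSeq for counting. They tested differential expression with DESeq2 at a false discovery rate under 0.05, whereas the main fit here is edgeR's. The processing notes name bcl2fastq 2.19 and the builds hg38 and GRCm38 without their roles. Versions of the other tools, the annotation and the strand setting of the counting are not given in the sources used here. HTSeq leaves out reads that align to several places, so near-identical genes are undercounted.

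The 5 summary rows of each file were left out, so that 59.7% to 61.9% of reads stayed as counted on genes. These rows entered neither library sizes nor tests. Symbols, coordinates and exon lengths came from GENCODE M21 of GRCm38, which held 50462 of 50686 identifiers. Counts were tested with edgeR 4.0.16 in R 4.3.3 (TMM, filterByExpr, quasi-likelihood test, Benjamini-Hochberg adjustment over all tested genes, threshold 0.05). Standard errors and 95% intervals were derived from the F statistic of that fit. The procedure was tested on simulated data with the same variability for every gene, no donor effect and no library of counts divisible by 4. That test therefore does not vouch for the intervals or the block calls in these samples. Pair ratios used log2(CPM + 0.5). The sources used here do not settle what a donor number stands for, so p-values rest only on variation between these samples, which may be technical. The edgeR fit also draws the variance of each gene toward a trend over all genes. Its p-values therefore do not measure the spread of a single gene alone. Same-numbered samples carry the same donor label, and their deviations from the group means correlated over genes with r of 0.23, 0.26 and 0.50 for replicates 1, 2 and 3, so the fit with a replicate block is given beside the fit without it. Different numbers gave r of -0.45 to 0.38. Control 1 correlated more with ICF 2 (0.38) than with ICF 1, control 2 about equally with ICF 1 and ICF 2 (both 0.26), and only replicate 3 clearly with its own number. Members had 156 to 4539 counts per sample. With so few samples per group the observed spread can fall below counting error, as it did for Sox1.

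The alternatives were 14 in number (DESeq2 1.42.0, RLE factors, 2 other filters, the replicate block with either tool, each sample left out, replicate 3 of both groups left out, and the counts of ICF replicate 3 divided by 4). A further 4 were added after seeing the data: the block without each pair, and the block with those counts divided. Without a pair, the block fits rest on 2 pairs, and the variance behind their p-values is pooled over genes. The members and lists were chosen with earlier results of these data known. The text names the members, the companions past the threshold and up to 4 of the most abundant others per list, and for each member the 2 genes of most similar pattern, out of those averaging 50 counts or more.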

Additional observations from a re-analysis of the deposited data

How the results depend on the processing

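In edgeR without a block, 580 genes were called up and 733 down. The count of all genes moved by more than 1.5 times with DESeq2 (943 up, 1109 down), the replicate block (2445 and 2561), DESeq2 with the block (1465 and 1661) and without replicate 3 of both groups (2466 and 2627). With the block and without replicates 1, 2 or 3 it was 1563 and 1769, 1932 and 2127, and 2162 and 2359, and with the block and the counts of ICF replicate 3 divided by 4 it was 2681 and 2778. Leaving out 1 sample gave 85 to 724 up and 215 to 928 down, with 109 and 251 without control 1, 85 and 215 without control 2, 181 and 290 without ICF 1 and 232 and 349 without ICF 2. Members called, 0 in either direction, became 1 up and 2 down with DESeq2, 2 up and 1 down with the looser filter of at least 1 count in any sample or with DESeq2 and the block, and 2 up and 2 down with the block, with the block and without any 1 replicate number, with the block and divided counts, and without replicate 3 of both groups. Leaving out 1 sample gave 0 to 1 in each direction. These counts did not move with RLE factors, the stricter filter or divided counts without the block. Companion genes, 5 up and 8 down, became 12 and 19 with the block, 12 and 22 with divided counts too, 16 down with DESeq2 and the block, and 8 and 23 without replicate 3. With the block and without replicates 1, 2 or 3 they were 11 and 14, 10 and 17, and 7 and 22. Leaving out 1 sample gave 2 to 6 up and 4 to 8 down. Of the 13 companion genes called, 6 passed in all 18 alternatives.

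The sign of Pou3f1 turned with the block (-0.025), DESeq2 with the block (-0.034), divided counts (-0.042, with the block -0.056), without replicate 3 of both groups (-0.17, with the block -0.18) and with the block without replicate 2 (-0.088). Leaving out 1 sample gave -0.25 to 0.22. The sign of Pax6 turned with the block without replicates 1 (0.034) or 2 (0.067), and leaving out 1 sample gave -0.12 to 0.054. Neither gene passed in any alternative, and the cause was not tested. Depth limits the members least counted, Sox3 and Pax6, where counting alone gives a coefficient of variation of 6.54% and 6.77% at the mean control count. In ICF replicate 3 the number of independent reads behind a count is unknown.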

Other observations

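Ratios between members within a sample were looked at after the values were seen, and are descriptions without a test. Per Otx2 count, Fgf5 had 0.188, 0.176 and 0.276 counts in control replicates 1, 2 and 3, and 0.481, 0.448 and 0.444 with ICF. The groups were thus apart, as they were for Otx2 alone, whereas Fgf5 alone overlapped. The 3 ICF ratios lay closer together than the levels of either gene. For Pou3f1 per Otx2 the controls gave 0.903, 0.873 and 1.02 and the ICF samples 1.09, 1.52 and 1.32. These were again apart, as for Otx2 alone, whereas Pou3f1 alone overlapped. Nes per Sox1 was 0.339, 0.328 and 0.373 against 0.397, 0.428 and 0.619, also without overlap, as for Nes alone.

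Over the 6 samples, Fgf5 and Nes had a Pearson r of 0.90 in log2 CPM, Fgf5 and Zic2 of -0.89 and Fgf5 and Sox3 of -0.81, out of 28 pairs of members, while Otx2 and Fgf5 had -0.19. The points share libraries, group and depth, so these are descriptions. The genes most like each member among 13172 compared over the 6 samples were Amotl2 and Aldh3a2 for Otx2 (r = 0.993 and 0.991), Impact and Trpv2 for Fgf5 (both 0.998), Spcs2 and Tspyl3 for Pou3f1 (0.996 and 0.988), and Kbtbd11 and Rnf113a1 for Zic2 (0.997 and 0.994). For Nes they were Cdk11b and Kif1a (0.998 and 0.997), for Sox3 Mettl8 and 6330403K07Rik (0.993 and 0.978), for Sox1 C1qtnf1 and Gm15879 (0.969 and 0.960), and for Pax6 Aasdh and Dph5 (0.967 and 0.957). With so many genes and 6 points, values over 0.95 arose for every member, from 4 genes for Sox1 to 416 for Fgf5.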
